A study of Arabidopsis thaliana with 24 samples.

Results

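The segment described here is a run of neighbouring genes on chromosome 4 of Arabidopsis thaliana, from locus code AT4G18650 to locus code AT4G21500. Its limits were chosen by measured values, since several differences between the gl3 and egl3 mutant lines lie inside them, so those differences are given below as a description and support nothing. The deposited table measured 210 of its genes, out of 21440 genes in all, once the 2 loci AT4G19680 and AT4G19690 were left out by the rule. The members AT4G19110 and AT4G19112 hold the same value in every array, so they are not separate measurements. The RefSeq gene table lists 342 loci in the same range, and 206 of the 210 members are among them. It gives 93 members a symbol, and the others are named by locus code, with no role given.

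Transcript levels came from Affymetrix arrays hybridised with RNA of sorted root cells of seedlings, with 3 arrays for each of 8 lines and 24 arrays in all. Every line carried the WER::GFP reporter, whose WEREWOLF promoter is active in lateral root cap and young epidermal cells, and the sorted cells were those that fluoresced. The lines carried gl3-1, egl3-1, cpc-1 with ttg2-1, cpc-1, myb23-1, try-82, ttg2-1 or wer-1. The labels describe the arrays of a line as biological replicates, and they give neither the parental accession of each line nor the number of backcrosses. Wild type was not analysed here, so each value compares mutant lines with each other.

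In the root epidermis, cells take a hair or a non-hair fate according to their position. In future non-hair cells the bHLH proteins GL3 and EGL3 form complexes with the MYB proteins WEREWOLF (WER) and MYB23, and TTG2, a WRKY factor, is among the genes these complexes turn on. CPC and TRY are small MYB proteins that move to neighbouring cells and compete with WER there. None of the mutated genes lies on chromosome 4, so the segment holds none of the lesions for which the lines are named. A segment is a set of neighbours and not a pathway, and its members have unrelated roles, among them vacuolar sorting, proteolysis, gibberellin and abscisic acid breakdown, RNA processing and receptor kinases.

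Levels are log2 values after robust multi-array averaging (RMA), in which 1 unit is a doubling of signal, and they ran from 2.01 to 13.6 over the table. Detection calls were not used here, so a low value does not show that a transcript was there, and 121 of the 210 members had a mean level of at least 5. Median levels were lowest in the arrays labelled cpc ttg2, at 6.49, and highest in egl3, at 6.83. TTG2 stood at 4.35 ± 0.44 (SD, n = 3) in ttg2 but at 8.25 ± 0.54 in the arrays labelled cpc ttg2, above the 5.65 to 7.26 of the other lines, so this line goes against its label and is called by that label throughout. A mutation need not lower its transcript, and none of the other mutated genes was lowest in its own line. TRY stood at 10.7 ± 0.55 in try, above the 7.09 to 9.57 of the other lines. CPC (9.88 in cpc and 9.98 in the arrays labelled cpc ttg2), EGL3, MYB23 and WER lay within the range of the other lines, and GL3 was not measured. Between lines, the mean of 5 epidermis markers ran from 9.56 to 10.2 and that of 3 lateral root cap markers from 9.35 to 10.3. The mean of 2 ground tissue markers ran from 5.17 to 6.44 and that of 3 stele markers from 3.56 to 4.33. Both of these last means were highest in the arrays labelled cpc ttg2. Arrays of a line correlated least in cpc, where the lowest r across genes was 0.918. The number of arrays limits the precision.

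Between gl3 and egl3, 8 members of the segment differed by more than 2 log2 units, as did 0.527% of all genes, and most of their neighbours were level. In sorted cell populations, fewer cells of a type and less RNA per cell cannot be told apart. With limma and a Benjamini-Hochberg (BH) adjusted p under 0.05 over all genes, these 8 were called, which is 3.81% of the members, where 0.658% of all genes were called. They were 5 higher in gl3 (0.485% of all genes) and 3 lower (0.173%). Since this contrast chose the segment, nothing is read from that count. In each of the 8 the 3 gl3 arrays lay on one side of the 3 egl3 arrays with no overlap, and these members are called the separating members. Higher in gl3 were AT4G20480 (4.70 ± 0.31, SE), VSR7 (3.81 ± 0.57), AT4G19500 (3.48 ± 0.36), AT4G20860 (2.53 ± 0.41) and AT4G20350 (2.33 ± 0.36). Lower in gl3 were SBT3.12 (-4.35 ± 0.20), AT4G19240 (-2.87 ± 0.46) and AT4G18975 (-2.80 ± 0.32). VSR7 is a vacuolar sorting receptor, which carries soluble proteins to the vacuole, and SBT3.12 is a subtilisin-like serine protease.

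**Figure D1:**
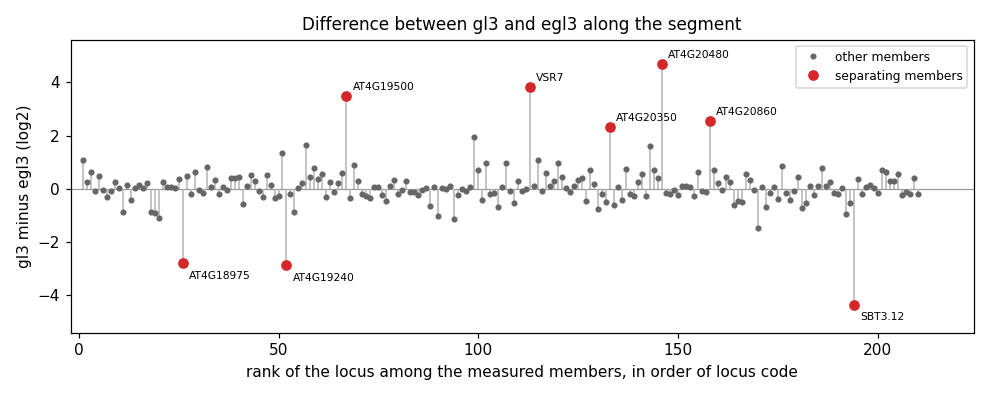
Difference between gl3 and egl3 (vertical axis, log2, gl3 minus egl3) for the 210 members, ranked in order of locus code along the horizontal axis. The 8 separating members (red) reach from -4.35 to 4.70 and stand apart from one another along the segment. Other members (grey) lie between them, some of them beyond 1. In all, 18 of the 210 members differ by more than 1 (8.57%, against 3.81% of all genes).

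The separating members did not form a block. They were the measured loci numbered 26, 52, 67, 113, 133, 146, 158 and 194 of the 210. Of the 48 measured loci within 3 places of one of them, 0 were called between gl3 and egl3, 3 differed by more than 1, and the median absolute difference was 0.27. These 3 were AT4G20450, near AT4G20480, at 1.61, CYP707A1, next to AT4G19240, at 1.34, and GSO1, near VSR7, at 1.08, of which AT4G20450 and GSO1 fall outside the rule for named genes. Along the segment as a whole the median absolute difference between gl3 and egl3 was 0.273, close to the 0.262 of the 210 measured genes before it and the 0.277 of the 210 after it. Those flanking stretches held 5 and 2 called genes. Over the segment 18 members differed by more than 1 between gl3 and egl3 (8.57%, against 3.81% of all genes). With limma, 36 had an unadjusted p under 0.05 (17.1%, against 9.31%). Both counts come from the contrast that chose the segment.

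At the ends of the segment the gl3 and egl3 arrays were not called apart on either side of its limits. Just inside the start, AT4G18650 stood at 4.65 ± 0.97 in gl3 and 3.56 ± 0.21 in egl3 (SD, n = 3 each), and AT4G18670 at 6.28 ± 0.21 and 6.03 ± 0.74. Just outside it, MRH1, a receptor-like kinase known from root hair growth, stood at 9.91 ± 0.26 in gl3 and 8.32 ± 0.86 in egl3, and AT4G18630 at 3.90 ± 0.33 and 3.09 ± 0.23. Just inside the far end, NDB3, a mitochondrial NAD(P)H dehydrogenase, stood at 3.52 ± 0.49 in gl3 and 3.10 ± 0.19 in egl3, and AT4G21500 at 2.93 ± 0.02 and 3.11 ± 0.35. Outside that end, FBS2, an F-box protein, stood at 8.03 ± 0.24 in gl3 and 8.61 ± 1.17 in egl3, and VAL3, a B3 domain protein, at 6.29 ± 0.30 and 6.06 ± 0.43.

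Most separating members set egl3 apart and left gl3 with the other lines. SBT3.12 read 4.08, 4.44 and 4.31 in the gl3 arrays, against 8.52, 8.64 and 8.72 in the egl3 arrays. It read 4.51, 4.79 and 4.85 in the arrays labelled cpc ttg2, 4.34, 4.50 and 4.79 in cpc, 4.45, 4.09 and 4.37 in myb23, 4.40, 4.19 and 4.05 in try, 5.83, 5.76 and 6.44 in ttg2, and 4.70, 4.20 and 4.43 in wer. The egl3 arrays were thus the highest of all 24, the ttg2 arrays stood alone in between, and the arrays of the remaining 6 lines lay between 4.05 and 4.85.

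AT4G20480 gave the reverse picture for egl3. It read 9.30, 9.50 and 9.77 in gl3 and 5.38, 4.30 and 4.79 in egl3. In the remaining lines it read 8.31, 9.08 and 7.88 in the arrays labelled cpc ttg2, 7.87, 7.26 and 7.28 in cpc, 9.34, 9.42 and 9.14 in myb23, 9.19, 9.68 and 9.50 in try, 8.38, 8.69 and 8.58 in ttg2, and 10.04, 9.34 and 9.05 in wer. All egl3 arrays were below every other array, and the cpc arrays were the lowest of the remainder, below all gl3, myb23, try, ttg2 and wer arrays.

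VSR7 read 9.56, 10.08 and 10.06 in gl3, against 5.67, 5.92 and 6.68 in egl3. Elsewhere it read 8.64, 9.58 and 9.26 in the arrays labelled cpc ttg2, 8.21, 7.39 and 7.13 in cpc, 9.24, 9.21 and 9.56 in myb23, 9.83, 8.39 and 8.94 in try, 9.32, 8.34 and 7.69 in ttg2, and 9.22, 9.71 and 6.83 in wer. Its egl3 arrays were again below all others, although 1 wer array came within reach of the highest of them, and the spread in wer was wide.

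AT4G18975 read 7.19, 7.56 and 6.81 in gl3 and 10.03, 10.56 and 9.36 in egl3, and 6.42 to 8.52 in the 18 other arrays, of which the ttg2 arrays were on average the highest. AT4G20860 read 9.77, 10.16 and 9.63 in gl3 and 7.21, 8.32 and 6.44 in egl3, and 8.95 to 10.91 elsewhere. In both, the egl3 arrays lay outside the range of the other 7 lines.

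**Figure D2:**
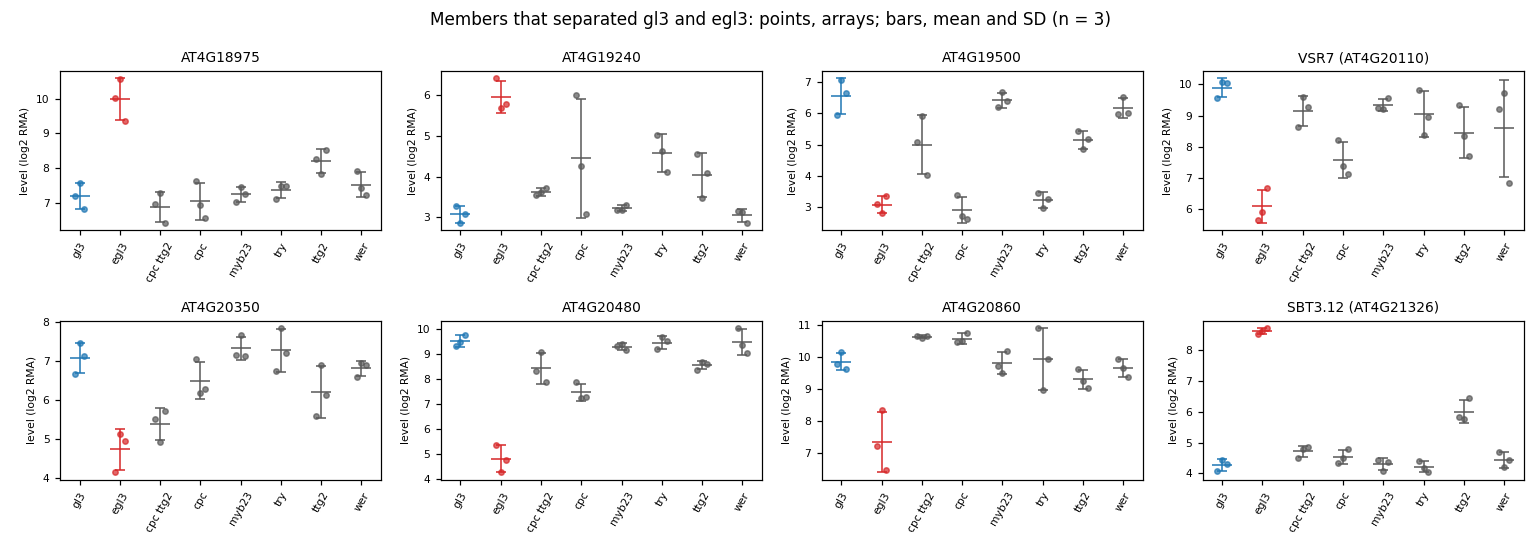
Level (log2 RMA) of the 8 separating members in every array, with gl3 (blue) and egl3 (red) followed by the other 6 lines (grey). Points are arrays and bars are the mean and SD of 3 arrays. The egl3 arrays stand alone in AT4G18975, VSR7, AT4G20480, AT4G20860 and SBT3.12, whereas cpc and try join egl3 in AT4G19500.

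The other separating members grouped the lines differently. AT4G19500 read 5.95, 7.07 and 6.65 in gl3 and 3.10, 2.79 and 3.34 in egl3. It read 5.07, 5.91 and 4.03 in the arrays labelled cpc ttg2, 3.39, 2.71 and 2.63 in cpc, 6.20, 6.67 and 6.39 in myb23, 3.46, 2.95 and 3.26 in try, 5.42, 4.86 and 5.17 in ttg2, and 5.98, 6.54 and 6.02 in wer. Here egl3, cpc and try shared a low level with overlapping arrays, gl3, myb23 and wer shared a high one, and ttg2 and the arrays labelled cpc ttg2 lay in between.

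AT4G19240 read 3.28, 2.87 and 3.10 in gl3 and 6.41, 5.69 and 5.77 in egl3. The cpc arrays, at 6.0, 4.26 and 3.08, spanned the whole distance between these 2 lines, and the try arrays stood at 5.03, 4.62 and 4.11. The myb23 and wer arrays, from 2.87 to 3.30, overlapped those of gl3. AT4G20350 read 6.68, 7.45 and 7.11 in gl3 and 4.16, 5.14 and 4.96 in egl3, and the arrays labelled cpc ttg2 came next to egl3 at 5.52, 4.94 and 5.72.

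Counted over the 8 separating members, myb23, ttg2 and wer had a mean nearer gl3 than egl3 in 8 of 8. The arrays labelled cpc ttg2 were nearer gl3 in 7, and cpc and try in 6 each. Over the 132 genes elsewhere that separated gl3 and egl3 in the same way, the share nearer gl3 was 84.8% for myb23, 72.7% for ttg2, 80.3% for wer, 80.3% for the arrays labelled cpc ttg2, 78.8% for cpc and 61.4% for try. These counts use the gl3 and egl3 arrays and are a description. In all 8 members the ttg2 mean lay between the pair, from 59.7% to 79.3% of the way from egl3 to gl3, while myb23 lay at 85.3% to 110.2%. These positions were not taken for the 132 genes elsewhere, so they have no background.

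Over all members, which lines shared levels was read from the 8 line means. A member was counted as split where the widest gap between neighbouring means was over 1 log2 and no array crossed it. This held for 15 members (7.14%), where 4.49% of all genes were split. In 7 of them gl3 and egl3 fell into different sets, where the background was 0.312%, and that count follows from how the segment was chosen. In the other 8 they fell into the same set, where the background was 4.17%.

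Of the 15, egl3 stood alone in 6, which were AT4G18975, CYP707A1, VSR7, AT4G20480, AT4G20860 and SBT3.12. A line was counted as alone where all its arrays lay beyond the other 21 and its mean was over 1 from the nearest line. This held for egl3 in 2.86% of members and 0.187% of all genes, and for gl3 in 0 members and 0 genes. All of these 6 members except CYP707A1 are separating members, so the count for egl3 follows from how the segment was chosen and supports nothing. CYP707A1, an abscisic acid 8'-hydroxylase that inactivates the hormone, read 10.71, 9.72 and 10.16 in gl3 and 8.90, 8.36 and 9.33 in egl3, and 9.72 to 11.72 elsewhere. Its difference between gl3 and egl3 was not called (adjusted p = 0.176, limma).

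Another 6 set the arrays labelled cpc ttg2 alone (2.86% of members, background 3.5%). MORF1, an organellar RNA editing factor, smB, a core spliceosomal protein, HEN1, the methyltransferase of small RNAs, and AT4G21140 were lower there, and PCAP1, a calcium-binding protein of the plasma membrane, and CML42, a calmodulin-like protein, were higher. GA2OX8 set try alone (0.476% of members, background 0.35%). The last 2 splits were AT4G19500, with cpc, egl3 and try low, and AtS40-3, of a family linked to senescence, with cpc, try and the arrays labelled cpc ttg2 high. PCAP1 and AtS40-3 fall outside the rule for named genes and were chosen after their values were seen.

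**Figure D3:**
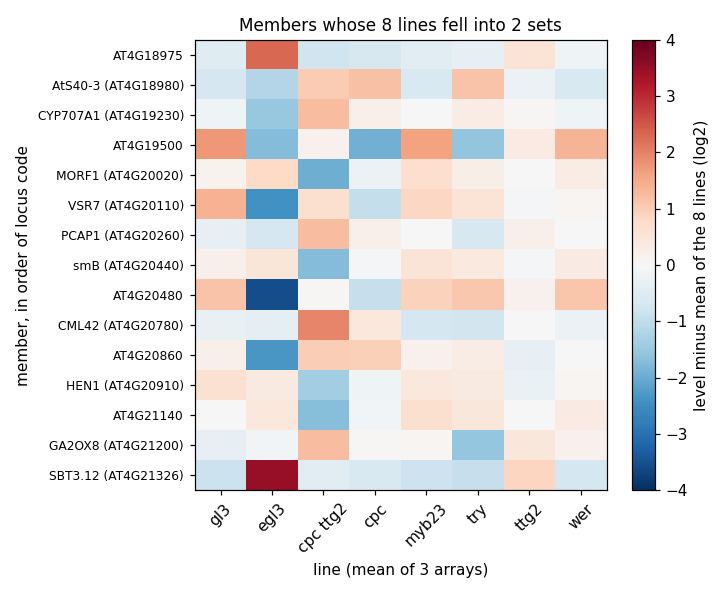
Mean level of each line minus the mean of the 8 lines (colour, log2) for the 15 split members, down the page in order of locus code. Red is above and blue below the mean of the lines. The egl3 column holds the strongest colours in 6 members and the cpc ttg2 column in 6 others, while AT4G19500 is low in egl3, cpc and try together.

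By pairs of lines, gl3 lay closest to myb23 over the segment, and so did egl3, try and wer. Between egl3 and myb23 the median absolute difference over members was 0.221 (0.191 over all genes), against 0.226 between egl3 and try. The median absolute difference over members was 0.182 between gl3 and myb23, where it was 0.196 over all genes, and of the 28 pairs only myb23 with try was closer (0.156, against 0.185). Only 1 member differed by more than 1 between gl3 and myb23 (0.476%, against 1.5% of all genes). Between gl3 and wer 3 did so (1.43%, against 3.88%), and between myb23 and wer 3 (1.43%, against 2.04%). For gl3 and cpc the count was 18 (8.57%, against 5.28%), and for gl3 and ttg2 it was 17 (8.1%, against 4.03%). For gl3 and try it was 9 (4.29%, against 4.4%). Between egl3 and the other single mutants apart from gl3, 19 to 40 members differed by more than 1 (3.42% to 10.6% of all genes), and 5 to 8 differed by more than 2 (0.555% to 1.1%). For egl3 and myb23 the count over 2 was 8 (3.81%, against 0.555% of all genes), and for gl3 and myb23 it was 0. For gl3 the count over 2 was 3 with cpc (1.43%, against 0.462%) and 2 with try (0.952%, against 0.592%). With ttg2 and with wer it was 0. Pairs with gl3 or egl3 hold arrays that chose the segment, so these distances were not tested. Among such pairs limma results are given only for gl3 against egl3, as a description from which nothing is read.

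The 6 lines other than gl3 and egl3 give comparisons that share no array with that choice. A moderated F test over these 6 lines passed 64 members (30.5%), where 28.1% of all genes passed. Without the arrays labelled cpc ttg2, the test over the remaining 5 lines passed 17 (8.1%), where 5.39% of all genes passed. The first share was close to its background, and the second lay above its background but moved with single arrays. Without try replicate 3 the second count was 8, and without cpc replicate 1 it was 26. Runs with an array left out, here and below, were counted over members only. Whether the share of all genes moved with them was not tested.

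Among those 5 lines, the pairs with cpc or try gave most calls, in some of them no more than the share of all genes. Between cpc and wer 12 members were called (5.71%, against 4.23% of all genes), and between try and wer 15 (7.14%, against 7.14%). Between cpc and try there were 6 (2.86%, against 3.19%), between cpc and myb23 6 (2.86%, against 0.886%). Between try and ttg2 there were 6 (2.86%, against 1.44%), between myb23 and try 5 (2.38%, against 1.96%) and between cpc and ttg2 4 (1.9%, against 0.518%). The calls between cpc and wer numbered 5 without cpc replicate 3 or wer replicate 1 and 6 without cpc replicate 2. Those between try and wer numbered 5 without try replicate 3 or wer replicate 1 and 9 without try replicate 2. Those between cpc and try numbered 2 without try replicate 3 and 13 without try replicate 1. Between cpc and myb23 there were 3 without cpc replicate 3, myb23 replicate 2 or myb23 replicate 3. Between myb23 and try there were 2 without myb23 replicate 1 or try replicate 3 and 3 without myb23 replicate 2 or 3. Between try and ttg2 there were 2 without try replicate 2 and 3 without try replicate 3, ttg2 replicate 1 or ttg2 replicate 2. Between ttg2 and wer 2 members were called (0.952%, against 1.28% of all genes), and between myb23 and ttg2 1 (0.476%, against 0.154%), which was SBT3.12. Between myb23 and wer limma called 0 members (0.014% of all genes), and 5 had an unadjusted p under 0.05 (2.38%), where 4.62% of all genes did.

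The arrays labelled cpc ttg2 differed from every other line in many members, as they did in many genes. They gave 20 calls against cpc (9.52% of members, 9.81% of all genes) and 67 against myb23 (31.9%, 28.4% of all genes). There were 75 against try (35.7%, 32.2% of all genes), 24 against ttg2 (11.4%, 11.5%) and 57 against wer (27.1%, 27.6%). Leaving out 1 array brought these to as few as 6 against cpc (without cpc replicate 2), 33 against myb23 (without myb23 replicate 2), 39 against try (without try replicate 2) and 8 against ttg2 (without ttg2 replicate 3). Stele markers averaged 4.33 ± 0.02 in the arrays labelled cpc ttg2 and at most 3.85 elsewhere, and ground tissue markers 6.44 ± 0.29 and at most 5.99 (SD, n = 3 each). Of these 5 markers, APL, SHR and CASP1 were highest in this line and SCR and CESA8 were not, and their part in the differences was not tested. Of the 20 against cpc, 13 were higher (4.02% of all genes) and 7 lower (5.79%), and of the 24 against ttg2, 15 were higher (4.7%) and 9 lower (6.79%). Centring each array on its own median, which raises this line relative to the others because its median was lowest, gave 28 higher (7.65%) and 6 lower (4.12%) against cpc and 35 higher (10.2%) and 7 lower (4.66%) against ttg2. Against myb23 the split was 31 higher (10.8%) and 36 lower (17.6%), and 70 (25.5%) and 24 (12.1%) after centring. Against try it was 39 higher (12.5%) and 36 lower (19.8%), and 56 (24%) and 25 (13.8%) after centring. Against wer it was 29 higher (11.6%) and 28 lower (16%), and 47 (17.1%) and 22 (12.1%) after centring.

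**Figure D4:**
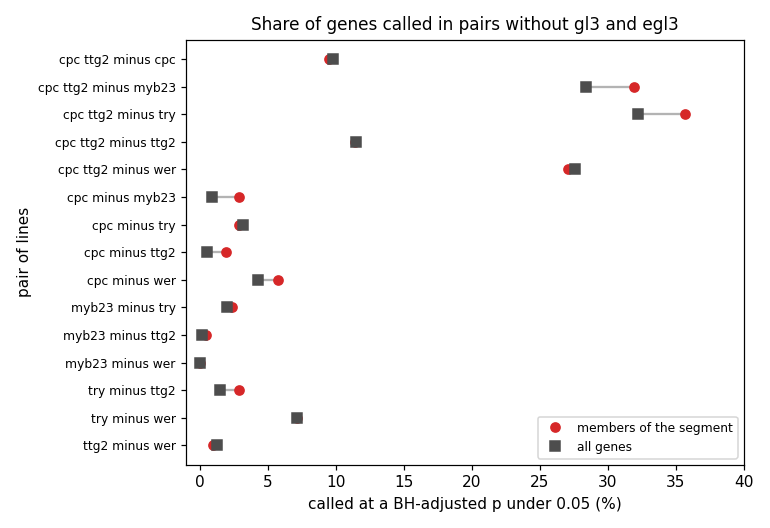
Share of genes called at a BH-adjusted p under 0.05 (horizontal axis, %) in the 15 pairs of lines without gl3 and egl3, for members of the segment (red circles) and all genes (black squares). The shares differ by at most a few percentage points. The members' share lies above that of all genes in several pairs. Among these are cpc with myb23 (2.86% against 0.886%), cpc with ttg2 (1.9% against 0.518%) and cpc ttg2 with try (35.7% against 32.2%). In others it lies at or below that of all genes, as for try with wer (7.14% against 7.14%) and cpc with try (2.86% against 3.19%). Members reach 35.7% for try against the arrays labelled cpc ttg2 and 0% for myb23 against wer.

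The adjacent loci VPS54 and AT4G19500 were both low in cpc and try relative to myb23 and wer. VPS54 is a subunit of a tethering complex that returns vesicles to the Golgi. It read 7.41, 7.43 and 7.27 in gl3 and 6.65, 6.70 and 6.92 in egl3. In the other 6 lines it read 6.56, 7.29 and 6.38 in the arrays labelled cpc ttg2, 6.07, 5.59 and 5.33 in cpc, 7.82, 7.89 and 7.93 in myb23, 6.35, 5.55 and 6.45 in try, 6.91, 6.89 and 7.23 in ttg2, and 7.98, 8.16 and 8.24 in wer. The cpc and try arrays overlapped each other and lay below every myb23, ttg2 and wer array.

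The difference in VPS54 was -2.46 ± 0.27 between cpc and wer (SE, adjusted p = 9.98e-05, limma) and -2.01 ± 0.27 between try and wer (adjusted p = 0.000366). Its difference between cpc and ttg2, -1.34, was called (adjusted p = 0.0343) and was lost under 7 of 12 alternatives. For AT4G19500 the differences were -3.27 ± 0.36 between cpc and wer (adjusted p = 0.0001) and -2.95 ± 0.36 between try and wer (adjusted p = 0.000148). Against myb23, cpc was lower by a difference of -3.51 (adjusted p = 5.56e-05), and myb23 exceeded try by 3.20 (adjusted p = 7.22e-05). AT4G19500 was also lower in cpc than in ttg2 (-2.25, adjusted p = 0.00598) and lower in try than in ttg2 (-1.93, adjusted p = 0.012). After quantile normalisation these last 2 differences were not called (adjusted p = 0.0515 and 0.0587). That between try and ttg2 was also lost without try replicate 2 (0.0741) or ttg2 replicate 1 (0.0563).

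SBT3.12 and AT4G20480 also differed among the lines that did not choose the segment. SBT3.12 was higher in ttg2 than in wer by 1.57 ± 0.22 (SE, adjusted p = 0.00403, limma), and it was lower in cpc (-1.46, adjusted p = 0.0029), myb23 (-1.71, adjusted p = 0.00465) and try (-1.80, adjusted p = 0.000199) than in ttg2. The arrays labelled cpc ttg2 were lower than ttg2 as well (-1.29, adjusted p = 0.00325). AT4G20480 was lower in cpc than in myb23 (-1.83 ± 0.30, adjusted p = 0.00572), try (-1.99, adjusted p = 0.00117) and wer (-2.01, adjusted p = 0.00176). AT4G20350 and AT4G18975 passed the F test over 6 lines (adjusted p = 0.00619 and 0.028) but not that over 5 (0.179 and 0.104), and AT4G20860 passed narrowly (0.0419) and failed under 15 of 24 alternatives. VSR7 and AT4G19240 did not pass over 6 lines (adjusted p = 0.194 and 0.0903).

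GA2OX8, a gibberellin 2-oxidase that inactivates gibberellin precursors, was the member that set try apart. It read 7.50, 6.87 and 7.59 in gl3 and 6.98, 7.29 and 8.37 in egl3. In the other 6 lines it read 8.57, 9.34 and 8.80 in the arrays labelled cpc ttg2, 7.48, 7.76 and 7.90 in cpc, 8.11, 7.29 and 7.80 in myb23, 6.55, 6.15 and 5.68 in try, 8.63, 7.85 and 7.89 in ttg2, and 7.83, 8.18 and 7.54 in wer. All try arrays were below the other 21, and gl3 and egl3 overlapped. The try line was lower than wer by a difference of -1.72 ± 0.30 (SE, adjusted p = 0.00275, limma) and lower than ttg2 (-1.99, adjusted p = 0.00188), while cpc and myb23 exceeded try by 1.59 and 1.60 (adjusted p = 0.00735 and 0.00767). Without try replicate 3 these last 2 differences missed the threshold (adjusted p = 0.0516 and 0.0607). That between myb23 and try was also lost without myb23 replicate 1 (adjusted p = 0.0578, limma).

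Another 2 members with differences among the single mutants were AtS40-3 and GALS3, a galactan synthase of the cell wall, which was also chosen after its values were seen. AtS40-3 read 5.64, 5.43 and 5.61 in gl3 and 5.27, 5.13 and 4.79 in egl3. It read 7.07, 6.95 and 8.26 in cpc and 7.91, 6.72 and 7.52 in try, against 5.71, 5.55 and 5.62 in wer. The cpc and try arrays were above all gl3, egl3, myb23, ttg2 and wer arrays, and both lines exceeded wer, by 1.80 ± 0.40 in cpc (SE, adjusted p = 0.0201, limma) and 1.76 ± 0.40 in try (adjusted p = 0.0144).

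GALS3 read 8.36, 8.39 and 8.25 in cpc, 8.26, 8.62 and 8.66 in try and 8.58, 8.54 and 8.13 in ttg2, against 7.45, 7.23 and 7.06 in wer. The wer arrays were the lowest of all 24, and the difference from wer was 1.08 ± 0.19 in cpc, 1.26 ± 0.19 in try and 1.17 ± 0.19 in ttg2 (SE, adjusted p = 0.00503, 0.000867 and 0.00856, limma). Its gl3 and egl3 arrays, 7.77 to 8.45, overlapped each other.

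**Figure D5:**
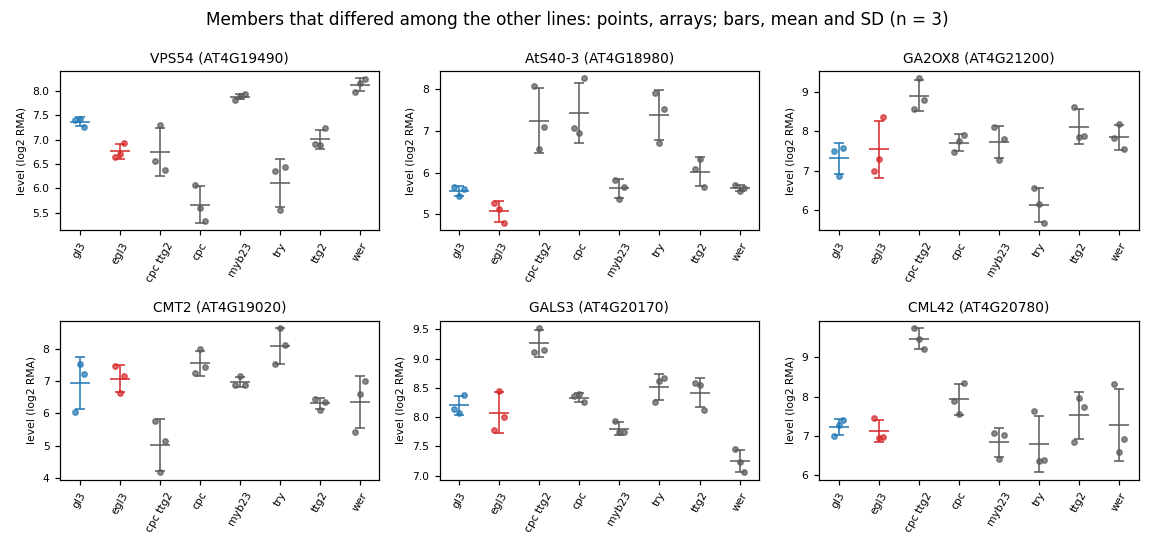
Level (log2 RMA) of 6 members that differed among the lines other than gl3 and egl3, in every array. Points are arrays and bars are the mean and SD of 3 arrays, with gl3 (blue) and egl3 (red) first. VPS54 is lowest in cpc and try, AtS40-3 highest in cpc, try and the arrays labelled cpc ttg2, GA2OX8 lowest in try and GALS3 lowest in wer, while CMT2 is lowest and CML42 highest in the arrays labelled cpc ttg2.

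CMT2, a DNA methyltransferase of transposons, had one of the widest ranges over the 6 lines. It read 5.76, 4.18 and 5.16 in the arrays labelled cpc ttg2 and 7.51, 8.63 and 8.10 in try, against 5.44, 6.61 and 6.99 in wer. The arrays labelled cpc ttg2 lay below try by a difference of -3.04 ± 0.41 (SE, adjusted p = 0.000157, limma) and below cpc by one of -2.51 (adjusted p = 0.00291). The try line exceeded wer by 1.73 (adjusted p = 0.0192), a call that was lost without try replicate 2, try replicate 3 or wer replicate 1.

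CML42, MORF1, smB, AT4G21140, AT4G20030 and AT4G19515 all had the arrays labelled cpc ttg2 at one end of their range over the 6 lines. CML42 read 9.76, 9.46 and 9.22 there, against 6.35 to 8.35 in the other 21 arrays, and it exceeded try by 2.70 ± 0.44 (SE, adjusted p = 0.000551, limma). MORF1 read 8.14, 7.40 and 8.04 there, against 10.64, 9.71 and 8.38 in cpc, 10.41, 10.66 and 10.34 in myb23 and 9.04, 10.56 and 10.50 in try. Within cpc, replicate 3 was the lowest for MORF1, smB, HEN1 and AT4G21140, and within try, replicate 1 was. The part that these single arrays play in the differences from cpc and try was not tested beyond leaving them out.

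The lower level of MORF1 in the arrays labelled cpc ttg2 was called against myb23 (-2.61 ± 0.47, SE, adjusted p = 0.0015, limma) and wer (-2.23, adjusted p = 0.00345). smB read 7.85, 7.41 and 6.88 in these arrays, against 9.47, 9.31 and 9.56 in wer, and HEN1 read 6.23, 5.61 and 5.59, against 7.05, 7.42 and 7.37 in wer. AT4G21140 averaged 6.63 ± 0.45 and AT4G20030 4.54 ± 0.66 in these arrays, against 8.67 ± 0.73 and 6.26 ± 0.22 in wer (SD, n = 3 each). AT4G19515 stood at 7.08, 5.34 and 4.18 there and at 3.18, 2.73 and 3.13 in ttg2, so its arrays differed widely within the first line. CML42, MORF1, smB, AT4G21140, AT4G20030 and AT4G19515 passed the F test over 6 lines (adjusted p from 0.00336 to 0.0114), and of these AT4G19515 also passed over 5 lines (adjusted p = 0.0164). Without cpc ttg2 replicate 3 the F test of smB, HEN1 and AT4G21140 missed the threshold (adjusted p = 0.0591, 0.0535 and 0.0553).

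By role, the members were read in lists that were trimmed after the values were seen, so the lists support no claim. They do not hold every member of a role. Of 5 listed and measured receptor kinases of the cysteine-rich and S-domain families, 3 passed the F test over 6 lines, which 28.1% of all genes passed. Their median range of line means was 1.14, where it was 0.885 for all genes. CRK27 was lower in try, at 6.70, 5.75 and 5.88, than in wer, at 8.32, 8.15 and 7.44 (-1.86 ± 0.32, SE, adjusted p = 0.00254, limma), and no array of the pair overlapped. B120 read 5.71, 5.31 and 5.21 in the arrays labelled cpc ttg2, against 3.40, 3.40 and 3.85 in wer, and its F test missed the threshold when all 24 arrays were fitted (adjusted p = 0.0839, against 0.0103).

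Of 7 listed and measured regulators of hormones and growth, 2 passed (28.1% of all genes). They were GA2OX8 and GSO1, a receptor kinase known from cuticle and Casparian strip formation (adjusted p = 0.0417). BIN2, the kinase of brassinosteroid signalling, also named outside the rule, stood at 10.1 to 10.4 in the 6 lines and did not pass (adjusted p = 0.552). CYP707A1 did not pass either (adjusted p = 0.0847).

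Of the 7 members listed as transcription and chromatin regulators HEN1 alone passed (adjusted p = 0.0112, 28.1% of all genes). The heat stress factor HSF A4A, with line means from 6.42 to 7.65 over the 6 lines, did not (adjusted p = 0.136). CMT2 is on none of the lists and passed the F test over 6 lines (adjusted p = 0.00137). Of 4 listed transporters, limma passed 0 (28.1% of all genes) and 2 had an unadjusted p under 0.05 (41.8%). KUP9, a potassium transporter, read 8.19, 7.70 and 7.90 in gl3 and 6.12, 5.37 and 6.48 in egl3, a difference of 1.94 that was not called (adjusted p = 0.166). AAT1, an amino acid transporter, averaged 7.02 ± 0.40 in gl3 and 6.15 ± 0.80 in egl3 (SD, n = 3 each).

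Some members scarcely moved in any line. Over the 8 lines, the means of ABCE2, a soluble ABC protein of translation, spanned 0.33, and those of AT4G20150, AT4G21105 and ARA7, a Rab5 GTPase of endosomes, spanned 0.38 each. ARA7 is measured locus 79 of the segment, and AT4G20150 follows VSR7 by 3 places. ABCE2 is 3 places before AT4G19240 and read 10.52, 10.41 and 10.44 in gl3, against 10.92, 10.73 and 10.72 in egl3. The arrays of this pair did not overlap, yet the difference of -0.33 was not called (adjusted p = 0.491).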

How the data were processed

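The authors deposited 1 table of log2 values for 24 arrays, which the submitters' processing notes credit to RMA, robust multi-array averaging. Its version, the array type and how probe sets were defined were not given in the sources used here. RMA brings arrays closer together and compresses differences between dim genes. The table held 21504 entries, of which 64 were controls and left out. Symbols came from the RefSeq gene table of assembly TAIR10.1, which matched 21222 of the 21440 locus codes, and no coordinates were taken from it.

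Members were taken by locus code. Linear models with 1 mean per line were fitted to all genes in R 4.3.3 with lmFit and eBayes of limma 3.58.1. All 24 arrays gave gl3 minus egl3, and the 18 arrays of the other 6 lines gave the F test and the 15 pairs. Tests were 2-sided, with Benjamini-Hochberg adjustment over the 21440 genes within each comparison, and a call is an adjusted p under 0.05. The fits were tested on simulated data. Errors of levels are the SD over arrays, and errors of differences are the fit's SE.

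The members, the role and marker lists and the tests were chosen with earlier results of these data known. Named genes were the separating members, the 10 widest ranges among members passing the F test, up to 2 per role list, the loci at the ends and the 4 narrowest ranges. Others are said to be chosen afterwards. Alternatives were centring on array medians, quantile normalisation, a mean level of at least 5, a replicate block, a variance prior that follows the mean, other sets of arrays and each array left out. Same-numbered arrays had a median correlation of residuals of 0.0178, against -0.0190 otherwise, and every such correlation was over 0.1 in 4 of 28 pairs of lines.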

Additional observations from a re-analysis of the deposited data

How the results depend on the processing

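Of the counts and shares, those not given here stayed within 1.5 times their value under centring, quantile normalisation, the mean filter, the variance prior and all arrays in 1 fit. Centring gave 34 calls for cpc ttg2 against cpc and 42 against ttg2. A mean of at least 5 gave 3 for cpc against myb23 and 4 for ttg2 against wer, with fewer genes tested. A gap of 0.5, chosen after seeing the data, gave 27 split members, and a gap of 2 gave 2 split and 2 with egl3 alone. The share of all genes was not taken at these gaps, nor with the mean filter or the replicate block. With the replicate number as a block the F test passed 65 members over 6 lines and 20 over 5, cpc against wer gave 9, try against ttg2 5 and myb23 against try 6, and no count moved by over 1.5 times. Every same-numbered correlation was over 0.1 only in cpc with wer, myb23 with try, try with ttg2 and egl3 with wer. For the other pairs they are shared numbers, and 12 of 24 arrays correlated best with their own number. Whether unrelated numbering would give as many such pairs was not tested.

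Leaving out 1 array gave 44 to 80 members in the F test over 6 lines (lowest without try replicate 3) and 8 to 26 over 5. Calls for the arrays labelled cpc ttg2 ran from 6 (without cpc replicate 2) to 31 (without cpc replicate 3) against cpc, 33 to 61 against myb23, 39 to 84 against try, 8 to 24 against ttg2 and 42 to 54 against wer. They ran from 3 to 9 for cpc against myb23, 2 to 13 against try, 3 to 5 against ttg2 and 5 to 15 against wer. They ran from 2 to 6 for myb23 against try, 1 to 1 against ttg2 and 0 to 0 against wer, 2 to 8 for try against ttg2, 5 to 19 for try against wer, and 2 to 3 for ttg2 against wer. For gl3 against egl3 they ran from 8 to 9, members with egl3 alone from 6 to 7 and split members from 14 to 18. The share nearer gl3 ran from 62.5% to 77.8% in cpc, 75% to 88.9% in cpc ttg2, 100% to 100% in myb23, 66.7% to 87.5% in try, 87.5% to 100% in ttg2 and 88.9% to 100% in wer. The cause of these moves was not tested, and the share of all genes was not taken in these runs. Fewer arrays also lower the power of each test, and detection calls were not used, so the level that clears background is unknown.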
